A study of Mus musculus with 3 samples.

Results

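The 35 genes described here are the cadherins and the protocadherins outside the protocadherin clusters, chosen as the rows of the deposited table whose symbol is Cdh or Pcdh followed by a number, with or without a final x. They are 23 Cdh genes and 12 Pcdh genes out of 31040 genes in the table. Cadherins are calcium-dependent adhesion molecules that bind mostly to the same cadherin on a neighbouring cell, and the intracellular tail of the classical ones holds catenins, which link the junction to actin. In the developing spinal cord, combinations of type II cadherins are known to sort motor neuron pools and interneurons, and non-clustered protocadherins steer axons, dendrites and synapses. Other members hold cells together, such as Cdh5 (VE-cadherin) at endothelial junctions and Cdh2 (N-cadherin) between neural cells.

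The study profiled single nuclei of the lumbar spinal cord at 90 days of age in high-copy B6.Cg-Tg(SOD1G93A)1Gur/J mice, which carry a mutant human SOD1 transgene and are hereafter called SOD1G93A, and in C57BL/6J littermates without the transgene, called WT. There were 12 mice, 3 of each sex and genotype, and each of 3 pools (A, B and C) held 1 mouse of each sex and genotype, told apart by nuclear hashtags. The table held 14662 nuclei and 206486779 unique molecular identifiers (UMIs, counts of captured RNA molecules), with 548 to 2259 nuclei and 6411715 to 36668441 UMIs per mouse, and the study labelled 10 cell types, 9 neuron sub-types and sub-clusters of 3 glial types. Levels are given in CPM, the UMIs of a gene per 1000000 UMIs summed over the nuclei of 1 type in 1 mouse, as the median over mice with the lowest and highest mouse in brackets. CPM is not corrected for gene length and nuclear counts also include intronic reads, so levels were compared between cell types within a gene and not between genes. Because nuclei were assigned to types from the same expression data, differences in level between types are a description and were not tested.

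The marker lists were highest in the type of their own name for astrocytes, motor neurons, oligodendrocytes, oligodendrocyte precursors (OPCs), microglia, endothelial, ependymal and Schwann cells and fibroblasts, but some types also carried other lists. The 4 neuron markers were at 3931 CPM in the nuclei labelled Schwann and meningeal against 1552 CPM in neurons (WT medians), and these nuclei held 122 CPM of Schwann cell markers beside 2200.5 CPM of oligodendrocyte markers. The mural cell markers Pdgfrb and Rgs5 summed to 3813 CPM in endothelial nuclei, and to 619 CPM in fibroblasts beside 183 CPM of the fibroblast list. In the nuclei labelled microglia the summed level of Cx3cr1, Csf1r and Ptprc was 57.5 CPM in WT and 110 CPM in SOD1G93A mice (medians), against 1216 and 1214 CPM for the oligodendrocyte markers Mog and Mbp and 983 and 1050 CPM for the neuron markers. These 223 nuclei had a median of 46927 UMIs each, against 9434 over all nuclei. Their summed microglia markers were at 65.5 CPM in sub-cluster 0, 18.8 CPM in sub-cluster 1 and 611 CPM in sub-cluster 2 (WT medians). These sub-clusters held 132, 76 and 15 nuclei. The part of other cells' RNA in the member levels of these types was not tested.

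The promoters of the 3 members that passed the genotype test in a whole cell type are shown because the report turns on these genes. Each run holds the 250 bases before the RefSeq start of the gene (GRCm38.p6), 5′ to 3′ on the strand of the gene, and capitals mark matches to 4 motifs searched on both strands, the GC box GGGCGG, the SOX core ACAAAG, the E-box CAGCTG and the AP-1 site TGACTCA. Cdh22 lies on the minus strand with its promoter at chr2:165234738-165234987, Cdh6 on the minus strand at chr15:13173676-13173925, and Pcdh7 on the plus strand at chr5:57717831-57718080. The GENCODE annotation places the start of Cdh22 at base 165234853 and that of Pcdh7 at base 57717967. Both lie inside the window, so these windows reach into the gene body given by GENCODE.
Cdh22: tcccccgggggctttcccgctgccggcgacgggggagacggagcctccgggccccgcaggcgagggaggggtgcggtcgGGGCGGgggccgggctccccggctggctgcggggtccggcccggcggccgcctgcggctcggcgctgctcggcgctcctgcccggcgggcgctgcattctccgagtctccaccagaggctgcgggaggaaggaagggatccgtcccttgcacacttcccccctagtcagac
Cdh6: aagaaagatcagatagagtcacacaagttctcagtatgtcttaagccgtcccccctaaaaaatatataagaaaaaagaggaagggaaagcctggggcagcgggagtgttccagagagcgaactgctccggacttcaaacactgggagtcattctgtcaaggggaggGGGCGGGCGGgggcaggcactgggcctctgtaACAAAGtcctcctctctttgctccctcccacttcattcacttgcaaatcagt
Pcdh7: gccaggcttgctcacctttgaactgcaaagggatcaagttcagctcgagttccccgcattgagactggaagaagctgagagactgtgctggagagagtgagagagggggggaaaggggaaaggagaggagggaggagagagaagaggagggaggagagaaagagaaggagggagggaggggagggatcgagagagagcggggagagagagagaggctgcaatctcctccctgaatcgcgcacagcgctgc
The Cdh22 window held 1 GC box and a GC content of 77.6%, and the Cdh6 window held 2 overlapping GC boxes and 1 SOX core at 51.2% GC. No match to the 4 motifs lay in the Pcdh7 window, at 58.4% GC. Over 32851 promoters of the same length the GC box was found in 32.7%, the SOX core in 16.5%, the E-box in 13.0% and the AP-1 site in 4.46%, and the median GC content was 52.4%. RefSeq promoter entries were matched for 22 of the 35 members, and Cdh19 and Pcdh11x were not among them.

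The 35 members lie on 11 chromosomes. In the GENCODE annotation of GRCm38, chromosome 8 held 8 of them, among them Cdh8, Cdh11, Cdh5, Cdh3, Cdh1 and Cdh13, and chromosome 15 held 5, all type II cadherins (Cdh6, Cdh9, Cdh10, Cdh12 and Cdh18). Chromosome 14 also held 5, Cdh24, Pcdh8, Pcdh17, Pcdh20 and Pcdh9. The type II genes Cdh20, Cdh7 and Cdh19 lie on chromosome 1. The longest gene bodies are 1550 kb for Pcdh15, 1140 kb for Cdh12, 1041 kb for Cdh13 and 925 kb for Cdh18. The shortest are 4.54 kb for Pcdh8 and 6.65 kb for Pcdh20.

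Counts ranged from 1848635 UMIs of Pcdh9 to 0 of Cdh15, the muscle cadherin, over all nuclei. Several epithelial members were at the low end, with 48 UMIs of Cdh1 (E-cadherin), 36 of Cdh16 (kidney cadherin), 17 of Cdh17 (liver-intestine cadherin) and 44 of Cdh26. These 5 genes and Pcdh12, with 69 UMIs, had too few counts for the test in any cell type. The other 29 members entered the test in at least 1 of the 10 cell types, and of these Pcdh7 and Pcdh9 did so in all 10.

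**Figure D1:**
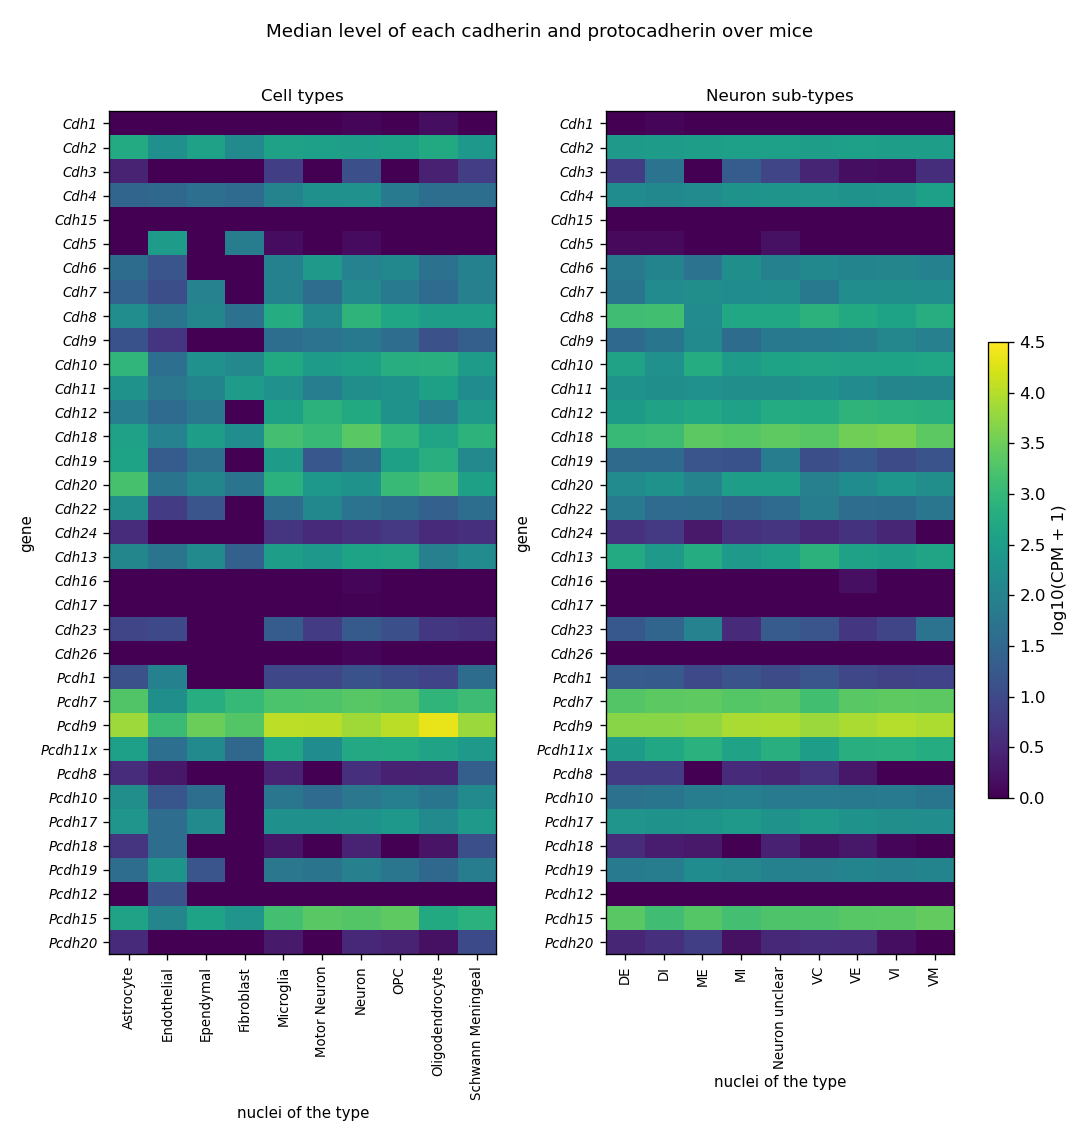
Heat map of the median level over mice of each of the 35 members, on a colour scale of log10(CPM + 1), in the 10 cell types (left) and the 9 neuron sub-types (right). Rows are genes grouped by sub-family and columns are the labelled types. Cdh5 is strong in endothelial cells and near 0 in the neural types, while Pcdh9 is high in every column, most of all in oligodendrocytes.

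Among the members of the vessel wall, Cdh5 stood at 299 CPM (217 to 332) in endothelial cells, at 78.1 CPM (0 to 316) in fibroblasts and below 1 CPM in the 8 other types. A Cdh5 UMI was found in 79.4% of endothelial nuclei (Wilson 95% interval 75.7 to 82.7), against 0.614% of neuron nuclei (0.471 to 0.800) at median depths of 6963 and 12864.5 UMIs per nucleus. The source of the UMIs in neuron nuclei was not tested, and intervals cover counting error only. Endothelial cells also had the highest median of 4 protocadherins. These were Pcdh19 at 215.5 CPM (135 to 294), Pcdh1 at 92.4 CPM (65.3 to 107), Pcdh18 at 39.3 CPM (18.9 to 55.9) and Pcdh12, the vascular protocadherin, at 13.4 CPM (0 to 25.3). Pcdh12 was found in 9.78% of endothelial nuclei and 0.0568% of neuron nuclei.

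Glia differed from neurons in the 3 type II cadherins of chromosome 1. Cdh20 was at 1566 CPM (1215 to 1850) in oligodendrocytes, 1550 CPM (1184 to 1874) in astrocytes, 1061 CPM (568 to 1714) in OPCs and 199 CPM (170 to 227) in neurons. The ranges of the 3 glial types overlapped, and all lay above the range of neurons. In WT mice alone the Cdh20 median was higher in astrocytes, at 1732 CPM, than in oligodendrocytes, at 1542 CPM. Cdh19, known from the neural crest and Schwann cell lineage, was at 659 CPM (399.7 to 944.5) in oligodendrocytes, 408 CPM (237.5 to 587) in astrocytes, 361 CPM (203.5 to 447) in OPCs and 34.4 CPM (19.2 to 72.9) in neurons. Cdh7 stood the other way, at 130 CPM (112.5 to 147) in neurons against 24.9 CPM (14.8 to 47.5) in astrocytes and 35.8 CPM (14.0 to 70.4) in oligodendrocytes. Of these 3 genes on 1 chromosome, Cdh7 alone was higher in neurons than in astrocytes and oligodendrocytes.

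Astrocytes had the highest median of 4 further members. Cdh22, a type II cadherin of brain tissue, was at 166 CPM (105 to 221) in astrocytes, 126 CPM (48.0 to 231) in motor neurons and 50.6 CPM (41.9 to 57.0) in neurons, so that astrocytes and motor neurons overlapped and neurons lay below astrocytes in every mouse. It was found in 48.2% of astrocyte nuclei and 10.3% of oligodendrocyte nuclei, which had similar median depths of 5338 and 5786 UMIs. Cdh10 was at 909 CPM (682 to 1049) and Cdh2 at 568 CPM (514 to 640) in astrocytes, the latter above the 316 CPM (291 to 332) of neurons without overlap. Pcdh10 (OL-protocadherin) was at 167.5 CPM (113 to 211) in astrocytes and 59.8 CPM (49.9 to 76.7) in neurons, also without overlap.

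Oligodendrocytes carried Pcdh9 at 22869 CPM (20341 to 29243.5), against 7207 CPM (5891 to 7636) in neurons, without overlap. Oligodendrocyte nuclei also held the highest median of Cdh11 over all mice, 364 CPM (280 to 428), with fibroblasts next at 307 CPM (91.7 to 947). The fibroblast median was 205 CPM in WT mice, rank 4 among the types. In SOD1G93A mice the fibroblast median was 708 CPM (131 to 947), from 5 mice, 24 nuclei and 47 UMIs. This median lay above every oligodendrocyte value, and the lowest of these fibroblast values lay below every oligodendrocyte value. Pcdh15, better known for the tip links of hair cells, was at 2451 CPM (1307 to 3755) in OPCs, 2263 CPM (1174 to 2860) in motor neurons and 1986 CPM (1863 to 2131) in neurons. These 3 types overlapped, whereas astrocytes were lower at 396 CPM (188 to 575). Pcdh7 varied within oligodendrocytes, with 198 CPM (143.5 to 539) in sub-cluster 0 and 4902 CPM (2345 to 6640) in sub-cluster 4. In sub-cluster 1 its median was 169 CPM in WT and 176 CPM in SOD1G93A mice. Sub-clusters 2 and 3 lay between, at 1173 and 1287 CPM in WT and 1344 and 1069 CPM in SOD1G93A mice. Sub-cluster 4 held 53 nuclei in which the summed OPC markers Tnr, Vcan and Cspg4 reached 6097 CPM in WT and 7879 CPM in SOD1G93A mice. These markers were at 209 and 159 CPM in sub-clusters 2 and 3 (WT medians).

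Motor neurons, 67 nuclei with 1 to 11 per mouse, differed in some type II cadherins from the other neurons pooled over their sub-types. Cdh6 was at 266 CPM (146 to 470) in motor neurons and 97.1 CPM (82.6 to 113) in neurons, without overlap. Of the sub-types described below, mid inhibitory neurons overlapped with motor neurons in Cdh6, at 171 CPM (111 to 229). Ventral cholinergic neurons also did, at 60.2 to 191 CPM in WT and 86.2 to 259 CPM in SOD1G93A mice. Ventral inhibitory and mixed neurons barely overlapped, and the other sub-types lay below. Cdh8 was the reverse, at 129 CPM (48.9 to 449) in motor neurons and 854 CPM (779 to 1017) in neurons. Mid excitatory, ventral excitatory and ventral inhibitory neurons overlapped with motor neurons in Cdh8, and dorsal neurons lay above. Cdh12 was at 780 CPM (419 to 2086) in motor neurons and 549 CPM (486 to 599) in neurons, and the ranges overlapped. Cdh4 (R-cadherin), a type I cadherin at 181 CPM (36.2 to 356) in motor neurons, also overlapped with the 186 CPM of neurons.

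In ependymal nuclei, fibroblasts and the nuclei labelled Schwann and meningeal the members were present at wide ranges. Ependymal nuclei held Pcdh9 at 3025 CPM (622 to 4855), Cdh2 at 371 CPM (165 to 648) and Cdh13 at 138 CPM (0 to 417), from 11 mice. Fibroblasts held Pcdh7 at 1021 CPM (245 to 4381), Cdh11 at 307 CPM (91.7 to 947) and Cdh2 at 139 CPM (0 to 1245), from 10 mice. Nuclei labelled Schwann and meningeal held Cdh19 at 131 CPM (40.5 to 219), Pcdh1 at 37.7 CPM (0 to 59.9) and Pcdh8 at 21.7 CPM (0 to 41.3). The ranges of Cdh19 and Pcdh1 overlapped with those of other types, and the median of Pcdh8 was 3.13 CPM or less elsewhere.

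Within the neurons many members differed between the dorsal and the ventral cord. The study mapped neurons to a published atlas as dorsal, mid or ventral and excitatory or inhibitory, besides ventral cholinergic and ventral mixed neurons and a set left unclear. Cdh8 was at 1302 CPM (1197 to 1503) in dorsal excitatory and 1390 CPM (1219 to 1851) in dorsal inhibitory neurons, against 540.5 CPM (434 to 634) in ventral excitatory, 402.5 CPM (249.9 to 619) in ventral inhibitory and 146 CPM (64.8 to 294) in mid excitatory neurons. With the CPM of the excitatory and the inhibitory class averaged in each mouse, dorsal neurons were 2.83 times ventral neurons in Cdh8 and higher in 12 of 12 mice. Cdh18 was the mirror image, at 3383 CPM (2705 to 3857) in ventral excitatory and 3772 CPM (2553 to 4372) in ventral inhibitory neurons against 1079 CPM (900.2 to 1260) in dorsal excitatory neurons, and its dorsal level was 0.322 times the ventral one.

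Of the 35 members 15 went 1 way in 12 of 12 mice, 8 of them higher in ventral and 7 in dorsal neurons. Of the 24 with at least 1000 UMIs in these classes 58.3% did so, and of all 8532 genes past the same floor 35.9%, given as a description. Members and all genes were not matched for counts above this floor. Ventral neurons were higher in every mouse for Cdh18, Cdh12, Cdh9, Cdh10, Cdh4, Cdh2, Pcdh9 and Pcdh11x. The dorsal level was 0.457 times the ventral one for Cdh12, 0.433 for Cdh9, 0.539 for Pcdh9, 0.573 for Pcdh11x, 0.661 for Cdh4, 0.722 for Cdh10 and 0.815 for Cdh2. In this list 4 of the 5 members on chromosome 15 are present, and the fifth, Cdh6, was higher ventrally in 11 of 12 mice. Dorsal neurons were higher in 12 of 12 mice for Cdh3, Cdh8, Cdh19, Cdh22, Cdh23, Pcdh1 and Pcdh8. Oligodendrocytes, in which Cdh19 is highest, gave more marker counts in the dorsal classes, 157 and 168 CPM in WT dorsal excitatory and inhibitory neurons against 95.7 and 66.2 CPM in the ventral ones, and their part in the Cdh19 difference was not tested. Cdh3 (P-cadherin), a classical cadherin of epithelia, was 27.8 CPM in dorsal and 0.527 CPM in ventral neurons. Cdh20 and Pcdh20 did not separate, with dorsal levels 0.981 and 1.05 times the ventral ones.

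Excitatory and inhibitory neurons of the dorsal cord also differed in several members. Cdh10, Cdh13, Cdh22 and Pcdh15 were higher in dorsal excitatory than dorsal inhibitory neurons in 12 of 12 mice, and Cdh2, Cdh3, Cdh6, Cdh7 and Cdh12 were lower in 12 of 12. In the ventral cord Cdh11 was higher in excitatory neurons, and Cdh20 and Pcdh9 in inhibitory neurons, in 12 of 12 mice. All of these 12 separations were of members with at least 1000 UMIs, 9 of 24 (37.5%) in the dorsal and 3 of 24 (12.5%) in the ventral cord. Of the 8532 genes past the same floor 15.8% and 1.54% separated, without matching for counts above it. Ventral inhibitory neurons had 178 nuclei in SOD1G93A mice against 583 for dorsal inhibitory neurons, and the part of these numbers in the 2 counts was not tested. Cdh13 (T-cadherin), which is held in the membrane by a lipid anchor and lacks the catenin-binding tail, was highest in the ventral cholinergic neurons at 769 CPM (420 to 1243). Mid excitatory neurons overlapped at 601 CPM (340 to 845), and in SOD1G93A mice their median of 625 CPM was above the 593 CPM of ventral cholinergic neurons. Cdh23, the tip link partner of Pcdh15, was highest in mid excitatory neurons at 97.2 CPM (68.5 to 276), with ventral mixed neurons next at 50.1 CPM (0 to 167). The neurons left unclear held 321 CPM of Cdh20 and 79.1 CPM of Cdh19, beside 299.7 CPM of summed oligodendrocyte markers in WT and 347 CPM in SOD1G93A mice. The same markers were at 66.2 and 97.0 CPM in ventral inhibitory neurons, and the part of oligodendrocyte RNA in these levels was not tested.

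The atlas labels go further, to numbered types such as DE_1 to DE_16 for dorsal excitatory neurons. Of 7757 neurons in the 8 named sub-types, 7526 carried a numbered label of the same sub-type, and 34 types had at least 80 nuclei and at least 3 nuclei in each of at least 10 mice. Of 24 members with at least 1000 UMIs over these types, the median gene was 3.84 times as high in its highest type as in its median type, with Cdh3 and Cdh23, whose median type was at 0 CPM, placed at the top of the order. Over all 8968 genes past the same floor of 1000 UMIs the median was 1.71 times. The 24 genes had their maximum in 16 different types, 12 genes in a dorsal excitatory and 11 in a dorsal inhibitory type, which make up 15 and 9 of the 34 types. For 9 of the 24, at least 25 types had their highest mouse below the lowest mouse of the top type, which is 37.5% of them, against 6.32% of all 8968 genes. Members and all genes were not matched for counts above the floor, and the part of depth in these shares was not tested. These types were described after their values had been seen and no test was made of them.

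**Figure D2:**
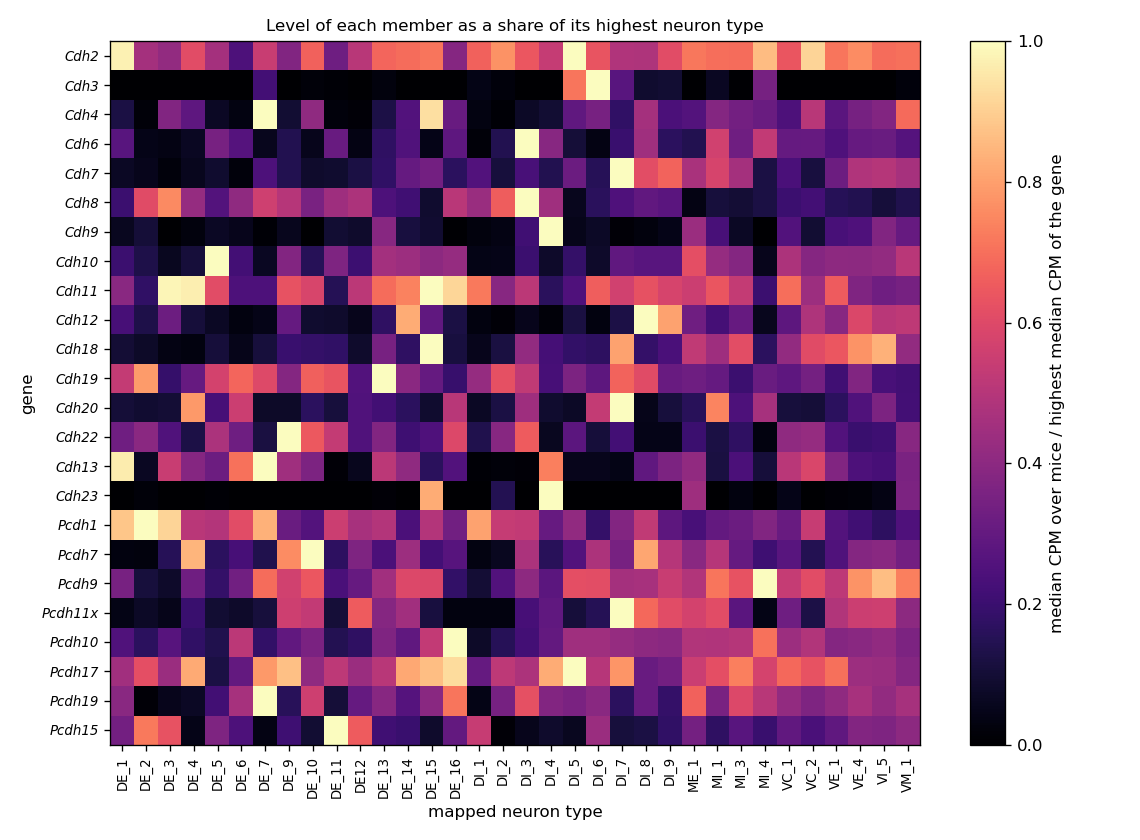
Heat map of the level of each member in 34 mapped neuron types as a share of the gene's own highest type (colour, 0 to 1), from medians over mice. Columns are the mapped neuron types and rows are genes. The brightest cells are scattered over many columns, 16 types being the highest for at least 1 gene.

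Cdh3 was restricted to few neuron types. It was at 184 CPM (45.6 to 241) in DI_6 and 131 CPM (77.0 to 260) in DI_5, both dorsal inhibitory, whereas the median over the 34 types was 0. In the mid inhibitory class as a whole Cdh3 was at 19.5 CPM (7.22 to 31.6), against 50.7 CPM (34.3 to 66.5) in the dorsal inhibitory class. A Cdh3 UMI was found in 74.8% of 210 DI_6 nuclei (Wilson 95% interval 68.5 to 80.2) and in 58.6% of 99 DI_5 nuclei (48.7 to 67.8). It was found in 0.672% of VE_4 nuclei and 0.439% of DE_2 nuclei, at median depths of 21263 and 8148.5 UMIs against 14635 in DI_6. Cdh23 was likewise highest in 2 types of different classes, DI_4 at 220 CPM (10.6 to 377) and DE_15 at 181 CPM (75.8 to 292), with a UMI in 39.6% and 67.5% of their nuclei, at median depths of 10845 and 12466 UMIs. The share was 6.72% in VE_4, 3.51% in DE_2, 3.03% in DI_5 and 2.86% in DI_6.

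Several type II cadherins peaked in single dorsal types. Cdh8 reached 3746 CPM (3039 to 5232) in DI_3 and 2831 CPM (2037 to 5142) in DE_3, and fell to 146 CPM (64.8 to 294) in ME_1. Cdh10 reached 981 CPM (749 to 1175) in DE_5, with ME_1 next at 608 CPM (389 to 751), and 32 of the other types lay wholly below the lowest DE_5 mouse. Cdh12 was at 1507 CPM (1226 to 1897) in DI_8 and 1246 CPM (728 to 2162) in DE_14 against 21.7 CPM (0 to 60.6) in DI_2. Neighbours in these orders overlapped for Cdh8 and Cdh12, and barely for Cdh10. DI_3 was also the highest type of Cdh6, at 358 CPM (253 to 678), and DI_7 that of Cdh7, at 348 CPM (265 to 627), and of Cdh20, at 626 CPM (276 to 951). Cdh18, which is ventral in the broad classes, had its highest median in the dorsal type DE_15, at 4509 CPM (2561 to 8246), overlapping with the 3775 CPM (2420 to 4372) of VI_5.

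Protocadherin levels also differed widely between mapped types. Pcdh7 was at 6145 CPM (5593 to 6783) in DE_10 and 5189 CPM (3338 to 6079) in DE_4, but 145 CPM (70.9 to 253) in DE_2, all 3 dorsal excitatory. Pcdh15 was at 6048 CPM (5128 to 10439) in DE_11 and 4362 CPM (3980 to 5245) in DE_2, but 86.7 CPM (20.2 to 194) in DI_2. DE_2 was thus low in Pcdh7 and high in Pcdh15. Pcdh9 varied less, from 927 CPM (556 to 1984) in DE_3 to 11415 CPM (9023 to 12550) in MI_4, and Pcdh11x peaked in DI_7 at 1283 CPM (431 to 1592). Cdh13 peaked in DE_7 at 1452 CPM (1210 to 1918) and DE_1 at 1398 CPM (1057 to 2122), where DI_1 held 13.2 CPM (0 to 375), and DE_7 was also the highest type of Cdh4, at 565 CPM (336 to 1198), and of Pcdh19, at 230.3 CPM (64.5 to 270).

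**Figure D3:**
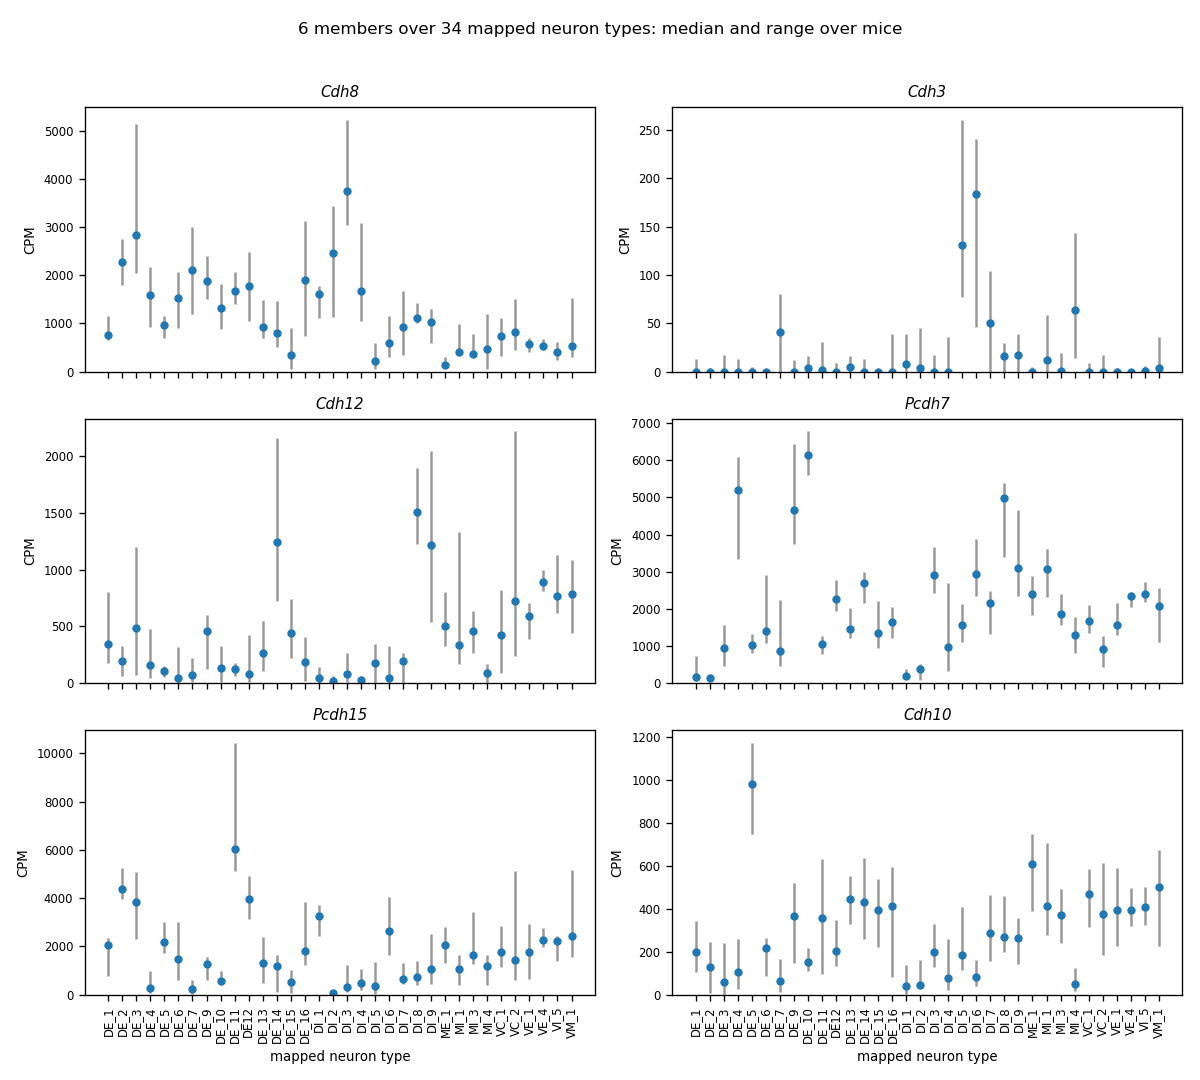
Level in CPM of 6 members (Cdh8, Cdh3, Cdh12, Pcdh7, Pcdh15 and Cdh10) in each of 34 mapped neuron types, with points for the median and bars for the lowest and highest mouse. Cdh3 stands clear of 0 in few types, chiefly DI_6 and DI_5, while Pcdh7 and Pcdh15 each have several high types of different identity.

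The comparison of SOD1G93A with WT mice asked which genes change in each cell type at a stage when signs of disease begin. UMIs summed per mouse and type were fitted over all genes with limma-voom, sex and genotype as groups and the pool as a term, and a false discovery rate (FDR) under 0.1 was the threshold. Over the 10 cell types 187 pairs of member and type were tested, and 3 passed, all lower in SOD1G93A mice, whereas 0.568% of all gene and type pairs passed. These were Cdh22 and Pcdh7 in astrocytes and Cdh6 in motor neurons. No member rose past the threshold in any of the 10 cell types. The edgeR quasi-likelihood test kept 1 of the 3, Cdh22, and DESeq2 called 4, adding Cdh19 in astrocytes. Without the pool A SOD1G93A female the count was 1, and without the pool B WT female it was 6, all lower. Calls in the higher direction came when other mice were left out, Cdh13 in astrocytes without the pool B SOD1G93A female or the pool B WT male, and Cdh4 in astrocytes and Pcdh7 in ependymal cells without the pool A SOD1G93A male. Unadjusted limma-voom p-values under 0.05 were found for 17.6% of the 187 pairs and for 7.18% of all gene and type pairs.

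In astrocytes 22 members were tested and 2 passed, beside 2.29% of all 9347 genes tested in this type and 0.909% that passed as lower. Unadjusted p-values under 0.05 were found for 10 of the 22 members (45.5%) and for 13.6% of all genes tested in astrocytes. Of the 22 log2 fold changes 13 were negative and 9 positive, with a median of -0.06, against a median of 0.02 over all genes.

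Cdh22 in astrocytes was at 162, 191 and 221 CPM (lowest, median and highest mouse) in WT and at 105, 115 and 171 CPM in SOD1G93A mice. All WT mice but the lowest lay above every SOD1G93A mouse, and the pool B SOD1G93A male, at 171 CPM, stood apart from its group, whose other mice were at 121 CPM or less. The log2 fold change of SOD1G93A over WT was -0.73 (SE 0.14, a fold of 0.601, limma-voom FDR = 0.0091), and the SOD1G93A mouse was the lower of its pool and sex in 6 of 6 pairs. Without the pool B SOD1G93A male the log2 fold change was -0.85. Cdh22 spans chr2:165111507-165234853 on the minus strand.

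The astrocyte sub-clusters shifted in their shares between the genotypes, and Cdh22 differed between them. Its WT median was 301 CPM in sub-cluster 1, 174 CPM in sub-cluster 0 and 127 CPM in sub-cluster 2. Sub-cluster 1 held 26.9 to 42.6% of the astrocyte nuclei in WT mice and 4.81 to 21.6% in SOD1G93A mice. Within the sub-clusters the log2 fold change of Cdh22 was -0.31 in sub-cluster 0 (limma-voom FDR = 0.884), -0.46 in sub-cluster 1 (FDR = 0.510) and -0.15 in sub-cluster 2 (FDR = 0.965). Cdh22 had too few counts for the test in sub-clusters 3 and 4, where its WT medians were 29.9 and 87.1 CPM. The median share of astrocyte nuclei was 8.65% in WT and 17.5% in SOD1G93A mice for sub-cluster 3, and 6.04% and 16.2% for sub-cluster 4, and the part of the shares in the change was not tested. Of the 3 astrocyte markers Gfap rose by 1.12 (FDR = 7.3e-07), Aqp4 rose by 0.80 (FDR = 0.00013), and Aldh1l1 was at -0.20 (FDR = 0.570) on the log2 scale. Of the oligodendrocyte markers in these nuclei Mbp rose by 0.50 (FDR = 0.0247), and Mog was at 0.00 (FDR = 0.998). The summed neuron markers there were at 415 CPM in WT and 654 CPM in SOD1G93A mice (medians). Rbfox3 was at 0.53 (FDR = 0.228), Camk2a at 0.46 (FDR = 0.229), Snap25 at 0.59 (FDR = 0.462) and Grin1 at 0.02 (FDR = 0.984). Of the OPC markers Vcan was at 0.82 (FDR = 0.175) and Tnr at 0.01 (FDR = 0.988). The part of other cells' RNA in the Cdh22 value was not tested.

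In other types Cdh22 did not pass. Its log2 fold change was -0.64 in motor neurons (limma-voom FDR = 0.338), -0.45 in OPCs (FDR = 0.864), -0.43 in oligodendrocytes (FDR = 1.00) and 0.09 in the other neurons (FDR = 1.00), with SE of 0.31, 0.35, 0.23 and 0.10. In the nuclei labelled Schwann and meningeal it was 0.69 (SE 0.37, FDR = 0.999) and higher in 6 of 6 pairs, and in those labelled microglia 0.14 (SE 0.17, FDR = 0.918). The difference between types was not tested.

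Pcdh7, a protocadherin of the delta-1 group, was at 1803, 1983 and 2549 CPM in WT astrocytes and at 1225, 1642 and 2276 CPM in those of SOD1G93A mice. The groups overlapped widely, but the SOD1G93A mouse was the lower of its pool and sex in 6 of 6 pairs. The log2 fold change was -0.39 (SE 0.11, limma-voom FDR = 0.0992), which sits at the threshold. The call was lost with edgeR (FDR = 0.131), without the pool term (FDR = 0.202), with a minimum count of 30 (FDR = 0.110), without the robust option of the variance fit (FDR = 0.126) and in 8 of the 12 fits that left out 1 mouse, where the log2 fold change kept between -0.46 and -0.29. The 4 mice whose removal kept the call were the WT females of pools B and C and both SOD1G93A mice of pool B. By sub-cluster Pcdh7 was at -0.34 in sub-cluster 1 and -0.45 in sub-cluster 2, and at -0.08, 0.05 and 0.02 in sub-clusters 0, 3 and 4, none past the threshold. The WT median was 1854, 2367, 2252, 1393 and 1521 CPM in sub-clusters 0 to 4, so that sub-clusters 3 and 4 were the lowest. Sub-cluster 3 held 7.56 to 12.0% of WT and 13.4 to 31.1% of SOD1G93A astrocyte nuclei, and sub-cluster 4 held 2.63 to 17.6% and 7.87 to 33.3%. The part of these shares in the Pcdh7 value was not tested. In other types Pcdh7 was at 1.20 in ependymal cells (SE 0.38, limma-voom FDR = 0.320, higher in 5 of 5 pairs) and at 2.21 in fibroblasts (SE 0.64, FDR = 0.690, higher in 4 of 4 pairs), without passing. It was at -0.42 in endothelial cells (SE 0.18, FDR = 0.980, lower in 4 of 6 pairs). In dorsal excitatory neurons it was at -0.21 (SE 0.06, FDR = 0.378), lower in 6 of 6 pairs and without overlap of the groups, but not past the threshold. It was higher in 6 of 6 pairs in mid excitatory neurons, at 0.26 (SE 0.12, FDR = 0.994). The same held in mid inhibitory neurons, at 0.10 (SE 0.08, FDR = 0.998). The other neuron sub-types lay between 0.00 and 0.45, and none passed. Pcdh7 spans chr5:57717967-58133230 on the plus strand.

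The remaining astrocyte members with the smallest p-values did not pass. Cdh4 was at 16.5, 26.0 and 30.9 CPM in WT and 24.2, 45.8 and 64.5 CPM in SOD1G93A mice, a log2 fold change of 0.67 (SE 0.20, limma-voom FDR = 0.112), and was the higher in 6 of 6 pairs. The call was made without the pool A SOD1G93A male (FDR = 0.0949). Cdh4 was higher in neurons than in astrocytes, and summed neuron markers in these astrocyte nuclei were at 415 CPM in WT and 654 CPM in SOD1G93A mice (medians). Cdh13 was at 0.49 (FDR = 0.145), Cdh10 at -0.33 (FDR = 0.161), Cdh19 at -0.49 (FDR = 0.185) and Cdh2 at -0.25 (FDR = 0.281) on the log2 scale. Cdh10 and Cdh2, both more abundant in astrocytes than in neurons, were the lower in 6 of 6 pairs. The part of other cells' RNA in the values of Cdh4, Cdh13 and the other members named here was not tested.

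In motor neurons 21 members were tested and 1 passed, beside 3.07% of all 5118 genes in this type and 1.64% as lower. An unadjusted limma-voom p under 0.05 was found for 3 of the 21 (14.3%) and for 15.9% of all genes. Cdh6 was at 244, 322 and 381 CPM in WT and at 146, 180 and 470 CPM in SOD1G93A mice. All WT mice lay above 5 of the 6 SOD1G93A mice, and the exception, the pool C SOD1G93A female, had 1 motor neuron nucleus with 27658 UMIs and 13 Cdh6 UMIs. The log2 fold change was -0.82 (SE 0.19, a fold of 0.567, limma-voom FDR = 0.0459), and the SOD1G93A mouse was the lower in 5 of 6 pairs. Without that mouse it was -0.94 (FDR = 0.0217). The call was lost with edgeR (FDR = 0.106), without the pool A SOD1G93A female (-0.64, FDR = 0.147) and without the pool C WT female (-0.82, FDR = 0.101).

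The motor neurons numbered 44 nuclei in WT and 23 in SOD1G93A mice, so that each value rests on few nuclei, and whether the motor neuron sub-types are sampled alike in both groups was not tested. Of the motor neuron markers Chat was at -0.12 (limma-voom FDR = 0.895), Slit3 at 0.01 (FDR = 0.990), Prph at 0.54 (FDR = 0.556) and Slc5a7 at 0.72 (FDR = 0.113) on the log2 scale. In the other neurons Cdh6 was at 91.3 CPM in WT and 106 CPM in SOD1G93A mice, a log2 fold change of 0.14 (SE 0.09, FDR = 1.00). Cdh6 spans chr15:13028701-13173675 on the minus strand.

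Next in motor neurons came Cdh12, which also lies on chromosome 15, at 760, 867 and 2086 CPM in WT and 419, 695 and 948 CPM in SOD1G93A mice. The groups overlapped and the pool C WT male held the 2086 CPM. The log2 fold change was -0.69 (SE 0.23, limma-voom FDR = 0.168), and it passed without the pool A WT male (-0.85, FDR = 0.0604). Pcdh7 was at -0.35 (SE 0.13, FDR = 0.195) in motor neurons.

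**Figure D4:**
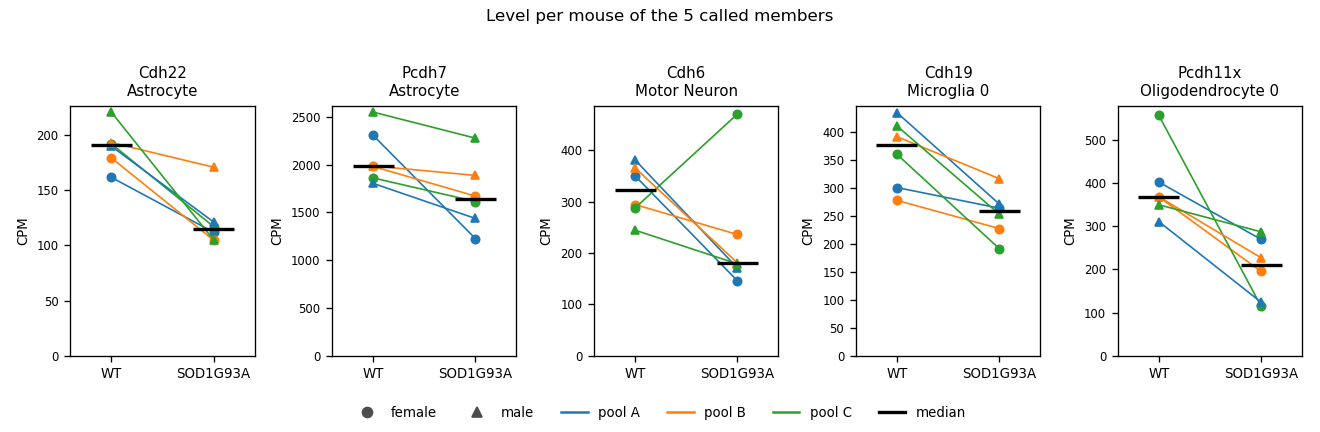
Level in CPM per mouse of the 5 members past the threshold, Cdh22 and Pcdh7 in astrocytes, Cdh6 in motor neurons, Cdh19 in microglia sub-cluster 0 and Pcdh11x in oligodendrocyte sub-cluster 0. Lines join the WT and SOD1G93A mouse of 1 pool (colour) and sex (circles female, triangles male), and black bars are group medians. All lines fall but 1, that of the female mice of pool C for Cdh6.

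The 8 other cell types gave 144 tested pairs and 0 calls, beside 0.0385% of all genes there, and limma-voom gave an unadjusted p under 0.05 for 20 pairs (13.9%) and for 5.26% of all genes there. Neither edgeR nor DESeq2 called any (0 and 0). In neurons, where counts were deepest and 28 members were tested, the smallest p-values were those of Cdh18 at -0.23 (SE 0.08), Cdh19 at 0.33 (SE 0.14) and Pcdh10 at -0.14 (SE 0.07) on the log2 scale, each with a limma-voom FDR of 1.00. Cdh18 was at 2232, 2299.9 and 2409 CPM in WT and 1761, 1934 and 2244 CPM in SOD1G93A neurons, and the lower in 6 of 6 pairs. In oligodendrocytes Pcdh11x was at -0.38 (SE 0.12, FDR = 0.887), Cdh6 at -0.31 (SE 0.14, FDR = 1.00) and Cdh22 at -0.43 (SE 0.23, FDR = 1.00). In the nuclei labelled microglia Cdh9 was at -0.62 (SE 0.19, FDR = 0.287), Cdh19 at -0.42 (SE 0.14, FDR = 0.392) and Cdh10 at -0.28 (SE 0.10, FDR = 0.437).

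**Figure D5:**
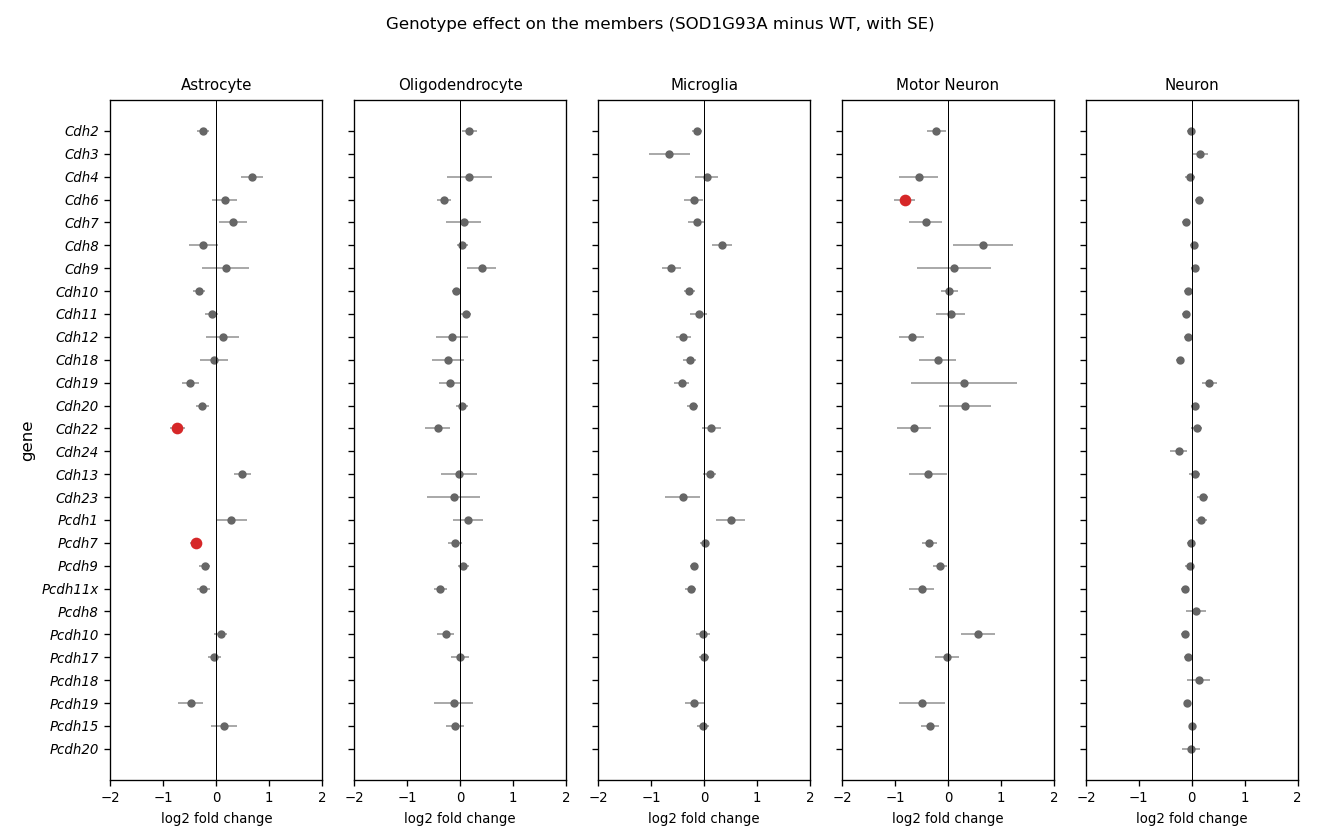
Log2 fold change of SOD1G93A over WT with its SE for each tested member in 5 cell types, from limma-voom. Red points pass FDR under 0.1, which are Cdh22 and Pcdh7 in astrocytes and Cdh6 in motor neurons, and every red point lies below 0.

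Among the neuron sub-types 206 pairs were tested and 0 passed, beside 0.0252% of all genes, with an unadjusted limma-voom p under 0.05 for 23 pairs (11.2%) against 4.54% of all genes, and 0 calls by edgeR and 0 by DESeq2. The lowest FDR, 0.263, was that of Cdh19 in dorsal excitatory neurons, with a log2 fold change of 0.63 (SE 0.16) from a WT median of 30.2 CPM to 42.7 CPM. It passed as higher without the pool C SOD1G93A male and without the pool B WT male, where the count of calls was 1. Oligodendrocyte markers in dorsal excitatory neurons were at 157 CPM in WT and 225 CPM in SOD1G93A mice, and their part in the Cdh19 value was not tested.

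Among the glial sub-clusters 208 pairs were tested and 2 passed, Pcdh11x in oligodendrocyte sub-cluster 0 and Cdh19 in microglia sub-cluster 0, both lower. In oligodendrocyte sub-cluster 0 the background was 0.179% of all genes, and 0.0893% as lower. In microglia sub-cluster 0 it was 0.449%, and 0.112% as lower. The other sub-clusters gave 170 tested pairs and 0 calls with limma-voom, edgeR and DESeq2, beside 0.0377% of all genes, and a limma-voom p under 0.05 for 13 pairs (7.65%) against 5.03% of all genes. The count of 2 became 0 without the pool C WT female or the pool A WT male, and 1 without the pool B SOD1G93A female or the pool B WT male. Without the former both calls were lost and Cdh18 passed as higher in astrocyte sub-cluster 4, and without the latter Cdh19 remained. Other calls also came in, Cdh8 as higher in microglia sub-cluster 0 without the pool A WT female, Cdh13 as higher in astrocyte sub-cluster 3 in place of Cdh19 without the pool A SOD1G93A male, and Pcdh11x as lower in oligodendrocyte sub-cluster 1 in place of Cdh19 without the pool C SOD1G93A female.

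Pcdh11x, an X-linked delta-1 protocadherin, was at 311, 368 and 557 CPM in WT and at 115, 211 and 287 CPM in SOD1G93A mice in oligodendrocyte sub-cluster 0, 711 nuclei of which 367 were WT and 344 SOD1G93A. The groups did not overlap, and the pool C WT female was the highest. The log2 fold change was -0.87 (SE 0.17, a fold of 0.548, limma-voom FDR = 0.0243), lower in 6 of 6 pairs. The call was lost without the pool term (FDR = 0.178) and without the pool B SOD1G93A female (FDR = 0.526), the pool C WT female (FDR = 0.105), the pool A WT male (FDR = 0.124) or the pool B WT male (FDR = 0.138), at log2 fold changes of -0.86 to -0.81. In the same nuclei Mog was at -0.08 and Mbp at 0.04, each with an FDR of 0.995. Summed OPC markers there were at 117 CPM in WT and 69.9 CPM in SOD1G93A mice, with Tnr at -0.82 (SE 0.40, FDR = 0.881), while the astrocyte markers Aqp4 and Gfap were at 0.72 (FDR = 0.881) and 0.61 (FDR = 0.884). The part of other cells' RNA in the Pcdh11x value was not tested. The other oligodendrocyte sub-clusters gave -0.46, -0.23, -0.40 and 0.76 for Pcdh11x in sub-clusters 1, 2, 3 and 4, none past the threshold. The sex contrast of Pcdh11x in sub-cluster 0 was 0.20 (FDR = 0.955). Pcdh11x spans chrX:120290259-120910619 on the plus strand.

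Cdh19 in microglia sub-cluster 0 (132 nuclei) was at 278, 376 and 434 CPM in WT and at 191, 258 and 316 CPM in SOD1G93A mice, with overlap, and lower in 6 of 6 pairs. The log2 fold change was -0.54 (SE 0.12, limma-voom FDR = 0.0718). The call was lost with edgeR (FDR = 0.128), without the pool term (FDR = 0.122) and without any 1 of 5 mice, the SOD1G93A females of pools B and C, the pool C WT female, the pool A SOD1G93A male and the pool A WT male (FDR from 0.132 to 0.307). Cdh19 is highest in oligodendrocytes, and the summed oligodendrocyte markers of this sub-cluster were at 1277 CPM in WT and 1157 CPM in SOD1G93A mice, against 65.5 and 123 CPM for microglia markers. There Ptprc rose by 1.00 (FDR = 0.0951), and Cx3cr1 and Csf1r were at 0.54 (FDR = 0.362) and 0.80 (FDR = 0.235). Of the oligodendrocyte markers Mog was at -0.40 (FDR = 0.248) and Mbp at -0.08 (FDR = 0.889). The part of other cells' RNA in the Cdh19 value was not tested. In microglia sub-cluster 1 Cdh19 was at -0.16 (SE 0.30), lower in 2 pairs and higher in 3. In OPCs it was at -0.45 (SE 0.17, FDR = 0.669), lower in 6 of 6 pairs without overlap of the groups. Astrocytes gave -0.49 and oligodendrocytes -0.19. Endothelial cells, motor neurons, the other neurons and the nuclei labelled Schwann and meningeal gave 0.24 to 0.33. None of these passed with limma-voom. Cdh19 spans chr1:110888326-110977584 on the minus strand.

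Of the genes that work with cadherins, a list of 19 held catenins, vinculin, afadin, the protease Adam10 that cuts cadherins, and the WAVE complex that delta protocadherins bind. In 145 tested pairs of gene and cell type 1 passed, Cyfip1 of the WAVE complex in astrocytes, at -0.47 (SE 0.14, limma-voom FDR = 0.0978). Over all genes 0.568% of pairs passed in the 10 types and 2.29% in astrocytes, and a limma-voom p under 0.05 was found for 11 of the 145 pairs (7.59%) against 7.18% over all genes. It was lost with edgeR (0 calls), without the pool term, without the robust option, with a minimum count of 30 (where Pkp4 passed as higher instead), and in 10 of the 12 fits that left out 1 mouse, those without the pool A or the pool B SOD1G93A female being the ones that kept it, and DESeq2 called 1. In astrocytes Pkp4 was at 0.38 (FDR = 0.138), Abi1 at -0.37 (FDR = 0.186) and Ctnnd2 (delta-catenin) at -0.27 (FDR = 0.249). A list of 17 large cadherins (Fat, Dchs, Celsr and calsyntenin genes with desmosomal and other members) had 65 tested pairs and 0 calls with limma-voom, edgeR and DESeq2, and an unadjusted limma-voom p under 0.05 for 11 pairs (16.9%) against the same 7.18%. Of the 11 pairs 5 were among the 9 tested in astrocytes, where the share over all genes was 13.6%. The lowest FDR was that of Clstn2 in motor neurons, at -0.64 (SE 0.21, FDR = 0.138), and Celsr2 in astrocytes was at 0.56 (FDR = 0.185). Clstn2 passed as lower without the pool B SOD1G93A female, the pool B WT female or the pool A WT male, and Celsr2 as higher without the pool A SOD1G93A female or the pool B SOD1G93A male.

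Sex made no called difference in the members. Of 187 pairs 0 passed, beside 0.159% of all genes, with an unadjusted limma-voom p under 0.05 for 16 pairs (8.56%) against 5.56% of all genes, and 0 calls by edgeR and 0 by DESeq2. The lowest FDR was 0.256, of Pcdh15 in OPCs, at -0.61 for female minus male. Without the pool B WT male the count was 2, Pcdh15 lower and Cdh12 higher in the OPCs of females. The difference of the genotype effect between males and females likewise gave 0 calls of 187, beside 0.0058% of all genes, with an unadjusted limma-voom p under 0.05 for 12 pairs (6.42%) against 3.11% of all genes, and 0 calls by edgeR and 0 by DESeq2. The lowest FDR was 0.594, and 1 call, Cdh18 in motor neurons, was made without the pool B SOD1G93A female.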

How the data were processed

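Nuclei of 12 mice in 3 hashtagged pools were sequenced by 10x single-nucleus RNA-seq. UMI counts per gene and nucleus were deposited by the authors with cell types, neuron sub-types, sub-clusters and mapped neuron types, and the submitters' processing notes name Cell Ranger 3.1, STAR 2.5.1b, bcl2fastq 2.20.0.422, Seurat 4.0.3 and R 4.0.3. The authors removed nuclei with ambiguous hashtags as doublets, and no further doublet caller was run. A scaled table deposited beside the counts was not used. Counts were summed per mouse and type (levels: CPM on unscaled totals) and tested in R 4.3.3 with limma 3.58.1 voom on genes passing filterByExpr (minimum count 10, by sex and genotype), TMMwsp scaling, the pool as a block and robust eBayes, with Benjamini-Hochberg adjustment over all genes of a type. Alternatives were edgeR 4.0.16 quasi-likelihood, DESeq2 1.42.0, TMM, other filters (minimum 30, none), no pool term, no robust option and leaving out each mouse. Scripts were tested on simulated data. Mice are separate animals, and barcodes shared between pools numbered 15 of 14647. Pools pair mice by design, since each was 1 library. The members and lists were chosen with earlier results of these data known, and 2 genes of the lists are not reported here. Named are members past the threshold, the 3 of smallest p in 5 cell types, the 3 leading members of each type by level, and Cdh22, Cdh12, Cdh5 and Cdh3; mapped neuron types, and other members named for their levels, were chosen after their values were seen.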

Additional observations from a re-analysis of the deposited data

Results flagged for a closer look

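In 10 of 88 groups of 5 or 6 mice 1 mouse stood further from the others than Dixon's 95% critical value allows, where chance gives about 1 in 20, and the causes were not tested. In motor neurons the male WT mouse of pool C held 2086 CPM of Cdh12 (others 760 to 1165) and the female SOD1G93A mouse of pool C 470.0 CPM of Cdh6 (others 146 to 236). In astrocytes the male SOD1G93A mouse of pool B held 171 CPM of Cdh22 (others 105 to 121). In oligodendrocytes the female SOD1G93A mouse of pool C held 68.1 CPM of Cdh6 (others 35.4 to 44.9) and 494 CPM of Pcdh11x (others 267 to 330), and in oligodendrocyte sub-cluster 0 the female WT mouse of pool C held 557 CPM of Pcdh11x (others 311 to 402). The remaining 4 were Cdh12 in microglia at 560 CPM in the female WT mouse of pool A (others 361 to 428), Cdh19 in neurons at 72.9 CPM in the female SOD1G93A mouse of pool A (others 25.4 to 42.4), Cdh23 in ventral mixed neurons at 167 CPM in the female WT mouse of pool A (others 11.2 to 60.9), and Cdh5 in endothelial cells at 217 CPM in the male WT mouse of pool C (others 287 to 327).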

How the results depend on the processing

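No log2 fold change reversed under any alternative run; 292 comparisons of a named member under an alternative kept their side of the threshold, 27 lost it and 4 gained it. Cdh22 in astrocytes kept its call under every alternative run, at an FDR from 0.0029 to 0.0462. Member calls for genotype in the 10 cell types, 3 in all, were 1 with edgeR, 6 without a filter on low counts, 1 to 6 when 1 mouse was left out, and 2 each without the pool term, with a minimum count of 30 and without the robust option, each of which lost Pcdh7 in astrocytes. In neuron sub-types 0 became 1 without the filter, and 0 to 1 when leaving out a mouse. In glial sub-clusters 2 became 1 with edgeR, 0 without the pool term, 19 without the filter (5 higher, 14 lower, most of them in astrocyte sub-cluster 1), and 0 to 3 when leaving out a mouse. Leaving out a mouse gave 0 to 2 calls for sex and 0 to 1 for the interaction, both 0 in all. The partner genes, 1 in all, gave 0 with edgeR, 0 without the pool term, 0 without the filter, 0 without robust eBayes and 0 to 2 when leaving out a mouse, and the large cadherins, 0 in all, gave 1 without the filter and 0 to 1 when leaving out a mouse. Of the levels recomputed over all mice or from pooled UMIs in place of the WT median, 108 moved by less than the spread between mice and 6 by more, which were Cdh22 in astrocytes (191 CPM to 166 and 161), Pcdh7 in fibroblasts (431 to 1021 and 1178) and Cdh18 in ventral inhibitory neurons (4193 to 3772 and 3858). The replicate block was the pool, held in every fit but the one without it, which also lost Pcdh7 in astrocytes, Pcdh11x in oligodendrocyte sub-cluster 0 and Cdh19 in microglia sub-cluster 0. Causes of these changes were not tested. Microglia sub-cluster 2, with 15 nuclei, could not be fitted. Depth limited fibroblasts and ependymal cells most, where 4 members each could be tested in 46 and 93 nuclei, and motor neurons, with 1 to 11 nuclei per mouse.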
